A study of Mus musculus with 6 samples.

Results

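Messenger RNA of 10 genes of the elastic fibre and fibulin family was compared between subchondral bone of the mandibular condyle after partial discectomy and after sham operation. The genes are Eln, Fbn1, Fbn2, Fbln1, Fbln2, Fbln5, Efemp2, Mfap4, Mfap5 and Lox. They were chosen by name, and all 10 are among the 23170 genes of the authors' deposited table. Partial discectomy removes part of the disc of the temporomandibular joint, and the series title places the work in the study of osteoarthritis of that joint. Both groups hold 3 libraries from mice labelled wild type, with an age label of P6w+PO2w, which gives 6 weeks and a further 2 weeks and leaves the prefixes unexplained. Surgery was on 1 joint, bone of the operated joint was dissected, and no transgene or drug is named for either group. The sample descriptions read Rctrl in the sham group and LPD in the other, and if the first letters stand for the side of the joint, which is not stated, side and operation cannot be told apart. Those descriptions also carry numbers, 1, 5 and 6 in sham and 2, 4 and 6 in the other group. Neither these numbers nor the 6 found in both groups are tied to an animal by the labels, and p-values may then measure a spread that is partly technical.

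Elastic fibres let a tissue stretch and recoil. A core of crosslinked elastin is laid down on a scaffold of microfibrils made of fibrillins, and fibulins and microfibril-associated proteins join both parts. Lysyl oxidase then crosslinks the elastin monomers, and it does the same for fibrillar collagens. Fibrillin microfibrils also hold latent TGF-beta and BMPs in the matrix. In the jaw joint elastic fibres are known from the disc and its attachments and from vessel walls, while bone itself is poor in elastin.

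Genes of the osteoblast and osteocyte list were present in the tissue. In the authors' deposited table Col1a1 and Col1a2, the chains of type I collagen, had means of 34180 and 20060 after partial discectomy and 27783 and 15384 in sham. Cartilage and fibroblast genes were present as well, with Col2a1 at 3181 and 2305 and Col3a1 at 2839 and 4515 in the authors' deposited table. Blood cell genes differed most between the groups. All 10 neutrophil and all 10 erythroid genes listed were called higher after partial discectomy, and their summed level above the floor went from 85.5 to 1333 and from 19.8 to 301.3 by the authors' deposited table. In such bulk samples fewer cells of a type and less RNA per cell cannot be told apart.

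The deposited values are group means of a normalized expression signal whose unit is not named, with a smallest value of 1, called the floor here. Whether the signal was divided by gene length is not given in the sources used here, so levels are not compared between genes. Where levels of a list are summed, the sum mostly follows the genes with the highest values. Ratios divide the mean after partial discectomy by that of sham. The table has no values per library, but for each gene it gives the highest of the 6 libraries and the geometric mean of all 6. Together with the group sums these settle for most genes which group holds the highest library and between which limits the remaining libraries must lie. For all 23170 genes at least 1 placement of the highest library was possible, and for 15376 only 1.

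By the authors' deposited table none of the 10 genes passed an adjusted p of 0.05, while 2.38% of all genes did, 528 higher and 24 lower after partial discectomy. With no adjustment 4 of the 10 had a p under 0.05 by the authors' deposited table, against 14.2% of all genes. Of these Fbln5 had a ratio above 1, where 10.9% of all genes were higher at that threshold, and Fbln1, Mfap4 and Mfap5 had ratios below 1, where 3.31% were lower. The 10 ratios ran on the log2 scale from -1.68 for Mfap4 to 0.92 for Fbln5, with 4 above and 6 below equal means. Their median log2 ratio was -0.26, beside 0.08 over all genes. The group of the highest library follows from the group sums for 3 of the 10 genes, and without it there, with the other genes as deposited, the median was -0.20. With the geometric mean as well, a step chosen after seeing the data, it follows for 8. Over these 8 the median was -0.47 as deposited and -0.09 without the highest library, and over all 10, with Efemp2 and Lox as deposited, -0.011. Leaving out the highest library of the group with the higher mean brings the means closer by construction, so its size, not its direction, is of interest.

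**Figure D1:**
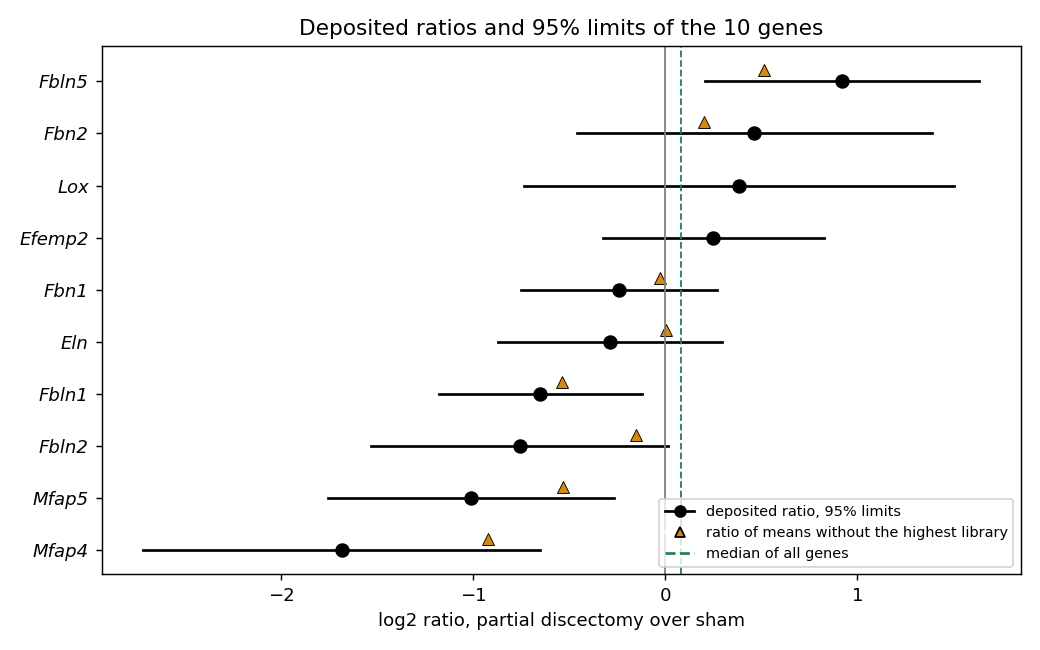
Deposited log2 ratios of partial discectomy over sham (x axis) for the 10 genes (y axis), with 95% limits as lines and the ratio without the highest library as triangles. Limits leave out equal means for Fbln5 on the higher side and for Fbln1, Mfap5 and Mfap4 on the lower side, and every triangle lies nearer to 0 than its dot.

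Libraries of a group varied more in these genes than in the typical gene. The spread within groups, as an SD on the log2 scale estimated from the group means and the geometric mean, had a median of 0.54 over the 10 genes and of 0.26 over the 10286 genes that exceeded the floor by 5 or more on average. The deposited 95% limits reached, to either side of the ratio, by a median of 0.73 on the log2 scale over the 10 genes, beside 0.48 over those 10286, and all 10 reached farther than that. The reach was least for Fbn1, at 0.51, and greatest for Lox, at 1.12. The highest library was placed for 8 of the 10 genes, in sham for Eln, Fbn1, Fbln1, Fbln2, Mfap4 and Mfap5 and after partial discectomy for Fbn2 and Fbln5. For no gene of the 10 could an overlap of the groups be shut out, where 13.6% of all genes had groups that cannot overlap. The groups had to overlap for Eln, Fbn1, Fbn2, Efemp2 and Lox, as they did for 61.5% of all genes, and for the other 5 the deposited values allow both.

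**Figure D2:**
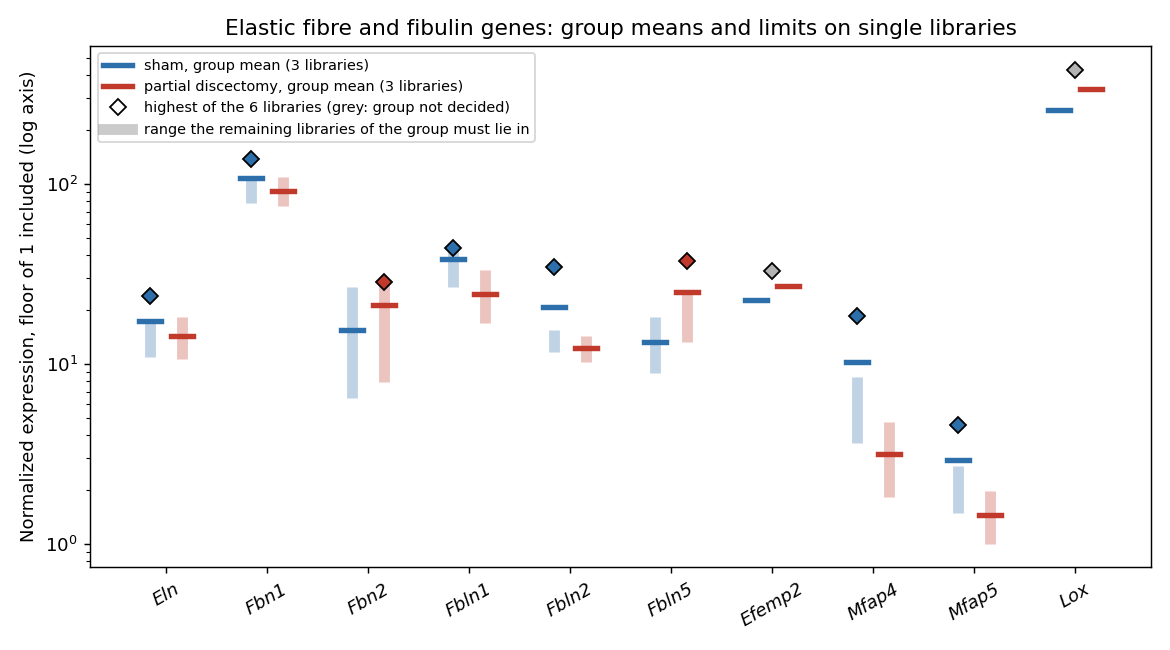
Normalized expression with the floor of 1 included (y axis, log axis) for the 10 genes (x axis), as group means of 3 libraries (short bars), the highest of the 6 libraries (diamonds) and the range in which the remaining libraries must lie (shading), sham in blue and partial discectomy in red. The highest sham library of Fbln2, at 34.7, and of Mfap4, at 18.5, stands well above the rest of its group, and the placement is not settled for Efemp2 and Lox, drawn in grey.

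Eln encodes tropoelastin, the monomer of the elastic core (chromosome 5, 134702593 to 134747323, minus strand, mm10). Its mean was 14.2 after partial discectomy and 17.4 in sham in the authors' deposited table. The highest library, at 23.8, was a sham library, the other sham libraries must lie between 10.9 and 17.4, and the partial discectomy libraries between 10.6 and 18.2. A single sham library thus stood above all others, and the ranges left for the rest of both groups nearly coincide. The ratio was 0.819 (95% limits 0.548 to 1.23, with adjusted p = 0.699) in the authors' deposited table. Without the highest library the means gave 1.00.

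Fbn1 encodes fibrillin-1, the main microfibril protein after birth (chromosome 2, 125300594 to 125507993, minus strand). Fbn1 had means of 91.5 after partial discectomy and 108 in sham in the authors' deposited table. A sham library was highest, at 138, and all other libraries must lie between 75.3 and 109. The ranges left to both groups nearly coincide. A ratio of 0.846 (0.595 to 1.20, with adjusted p = 0.708) was given by the authors' deposited table. Fbn2 encodes fibrillin-2, the fibrillin made most in the embryo (chromosome 18, 58008623 to 58210487, minus strand). Its mean was 21.3 after partial discectomy and 15.4 in sham in the authors' deposited table. Here the highest library, at 28.3, lay in the partial discectomy group, whose others must lie between 7.96 and 27.6, and the sham libraries between 6.43 and 26.8. Libraries of the same group were far apart, with a spread of 0.68 on the log2 scale. The ratio of 1.38 had 95% limits of 0.726 and 2.62 in the authors' deposited table (adjusted p = 0.584). Both fibrillins thus had limits on either side of equal means, and whether their ratios differ from each other was not tested.

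The 4 fibulins on the list had ratios on both sides of equal means. Fibulins are secreted glycoproteins with chains of calcium-binding EGF modules. Fbln1 encodes fibulin-1, which binds fibronectin, elastin and basement membrane proteins (chromosome 15, 85205949 to 85286535, plus strand). Its mean was 24.4 after partial discectomy and 38.3 in sham in the authors' deposited table. The highest library was a sham library at 44.1, the other sham libraries must lie between 26.8 and 44.1, and the partial discectomy libraries between 16.8 and 33.0. Of the 4 genes at an unadjusted p under 0.05, it was the 1 whose ratio moved least without the highest library, from 0.637 (0.442 to 0.919, with adjusted p = 0.214 in the authors' deposited table) to 0.689. Fbln2, fibulin-2 of basement membranes and elastic tissues, lies on chromosome 6, 91212455 to 91272540, plus strand. Its means were 12.2 after partial discectomy and 20.6 in sham in the authors' deposited table. A single sham library reached 34.7, which is 56.1% of the sham total, where an even spread gives 33.3%. The other sham libraries must lie between 11.7 and 15.4 and the partial discectomy libraries between 10.3 and 14.2, so that the remaining libraries of both groups were close to each other. The ratio was 0.592 (0.346 to 1.01, with adjusted p = 0.470) in the authors' deposited table, and 0.899 without that library.

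Fbln5 encodes fibulin-5, which brings tropoelastin to the microfibrils and binds integrins on cells (chromosome 12, 101746565 to 101819055, minus strand). It had the highest ratio of the 10 genes. Means were 25.0 after partial discectomy and 13.2 in sham in the authors' deposited table. The highest library, at 37.4, lay in the partial discectomy group, the others of that group must lie between 13.2 and 24.5, and the sham libraries between 8.88 and 18.1. The ratio of 1.89 (1.15 to 3.10, unadjusted p = 0.0211, with adjusted p = 0.237) in the authors' deposited table went to 1.43 without the highest library. Efemp2 encodes fibulin-4, which carries lysyl oxidase to tropoelastin (chromosome 19, 5473954 to 5482517, plus strand). Its means were 26.9 and 22.6, and the ratio 1.19 (0.799 to 1.77, with adjusted p = 0.734), in the authors' deposited table. Its highest library, at 32.7, could lie in either group, and leaving it out gives 1.06 or 1.53 accordingly.

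The promoters of Fbln1 and Fbln5 are shown because both fibulins passed an unadjusted p of 0.05 with ratios on opposite sides of equal means. Each sequence is the 250 bases before a RefSeq start on GRCm38.p6, the patch release of mm10, written 5′ to 3′ on the gene's strand, for Fbln1 chr15:85205699-85205948 (plus strand) and for Fbln5 chr12:101819120-101819369 (minus strand). Capitals mark matches, on both strands, to any of 5 motifs, which are the GC box (GGGCGG), the AP-1 element (TGACTCA), a SMAD element (CAGACA), a TEAD element (CATTCC) and the TATA box (TATAAA).
Fbln1: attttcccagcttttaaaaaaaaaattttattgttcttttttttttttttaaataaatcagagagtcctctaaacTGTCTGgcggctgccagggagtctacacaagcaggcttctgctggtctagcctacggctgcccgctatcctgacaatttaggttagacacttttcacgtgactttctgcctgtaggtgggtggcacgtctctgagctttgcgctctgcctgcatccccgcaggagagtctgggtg
Fbln5: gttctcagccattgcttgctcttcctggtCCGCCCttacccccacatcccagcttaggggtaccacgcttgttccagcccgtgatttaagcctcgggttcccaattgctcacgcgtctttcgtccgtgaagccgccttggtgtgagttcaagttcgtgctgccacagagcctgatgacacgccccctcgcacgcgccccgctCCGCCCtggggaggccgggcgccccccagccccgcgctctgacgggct
The Fbln1 window held 1 match to the SMAD element, which 17.1% of all 32851 windows of that length hold, and none to the GC box. The Fbln5 window held 2 matches to the GC box, found in 32.7% of all windows, and none to the SMAD element. Neither held a match to the AP-1, TEAD or TATA letters, which 4.46%, 12.6% and 12.4% of all windows hold. No motif matches overlapped in these windows. Fbln1 had 7 CpG dinucleotides and 46.4% G and C, and Fbln5 had 21 and 65.2%, beside medians of 6 and 52.4% over all windows. These letters describe the windows and do not show binding of a factor.

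Both microfibril-associated genes had the lowest ratios of the 10. Mfap4 encodes a glycoprotein that binds elastin, fibrillin and collagen (chromosome 11, 61485431 to 61488900, plus strand). Its mean was 3.17 after partial discectomy and 10.2 in sham in the authors' deposited table. The highest library, a sham library at 18.5, held 60.6% of the sham total, the other sham libraries must lie between 3.65 and 8.39, and the partial discectomy libraries between 1.82 and 4.75. A single sham library was therefore far above its group, and both ranges share the levels between 3.65 and 4.75. The ratio was 0.311 (0.152 to 0.637, unadjusted p = 0.00889, with adjusted p = 0.157) in the authors' deposited table and 0.527 without the highest library, a move of 1.69 times. Mfap5 encodes MAGP-2, a small protein bound to fibrillin (chromosome 6, 122505845 to 122529290, plus strand). It was close to the floor, at 1.45 after partial discectomy and 2.93 in sham in the authors' deposited table. The highest library, again in sham, was at 4.58, with the other sham libraries between 1.48 and 2.71 and the partial discectomy libraries between 1.00 and 1.97. The ratio of 0.496 (0.296 to 0.830, with adjusted p = 0.219) in the authors' deposited table went to 0.692 without that library. With the floor subtracted from both means the ratios were 0.236 for Mfap4 and 0.234 for Mfap5, and if the floor is an offset, the deposited ratio of Mfap5 understates its difference most.

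Lox encodes lysyl oxidase, the copper enzyme that starts the crosslinks of elastin and collagen (chromosome 18, 52516067 to 52529867, minus strand). Its mean was 335 after partial discectomy and 257 in sham in the authors' deposited table. The highest library reached 431 and could lie in either group. Single libraries of Lox must have been far apart, as its spread within groups, 0.81 on the log2 scale, was the widest of the 10 genes. The ratio was 1.31 (0.6004 to 2.84, with adjusted p = 0.680) in the authors' deposited table, and these limits leave a lower level and one up to 2.84-fold higher both possible. Leaving out the highest library gives 1.12 if it lay after partial discectomy and 1.97 if it lay in sham.

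**Figure D3:**
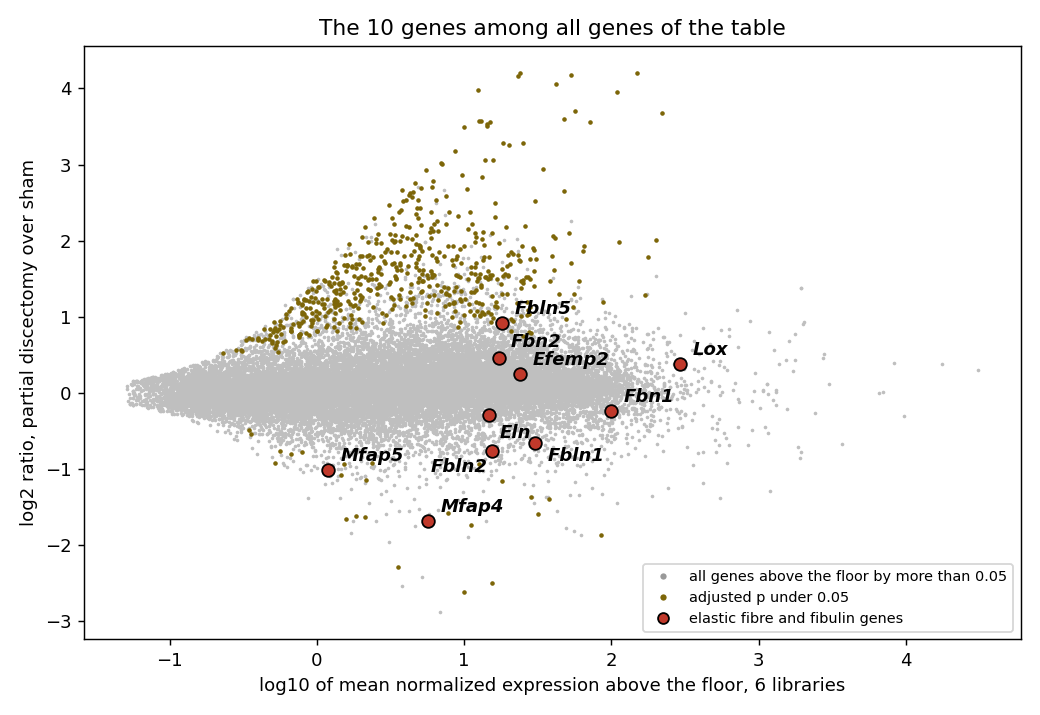
Log2 ratio of partial discectomy over sham (y axis) against the log10 of the mean above the floor over 6 libraries (x axis). Genes above the floor by more than 0.05 are in grey, and those of them at an adjusted p under 0.05 in brown. The 10 elastic fibre and fibulin genes are in red. The 10 genes lie among the grey points, with Mfap4 at -1.68 the farthest from 0.

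Of the 4 genes that overlap one of the 10, Gm9913 at Fbn1, Mus81 at Efemp2, Mapk7 at Mfap4 and Gm41724 at Lox, all lie on the opposite strand. Whether reads were counted by strand is not given in the sources used here, so reads from the shared stretches cannot be told apart. None of the 4 neighbours was called in the authors' deposited table, with ratios from 0.922 for Gm9913 to 1.42 for Gm41724.

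The wider elastic fibre system was read from a list of 60 further genes, of which 59 were analysed. Of the 59 the authors' deposited table called 2 higher and 0 lower, beside 2.28% and 0.104% of all genes. With no adjustment 8 were higher and 8 lower at a p under 0.05, beside 10.9% and 3.31% of all genes. The median log2 ratio of the 59 was -0.0042, with 29 ratios above and 30 below equal means. Unlike the members, this list held genes whose groups cannot overlap, as 13.6% of all genes did. On the lower side these were Efemp1, Hmcn1, Hmcn2, Emilin3, Ltbp4 and Timp3. On the higher side they were Mmrn1, Neu1, Ctss, Prtn3, Slpi and Serpinb1a.

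Remaining fibulin family genes all had ratios below 1, as did 37.3% of all genes. Efemp1 encodes fibulin-3, and Fbln7 fibulin-7, while Hmcn1 and Hmcn2 encode the hemicentins, very long matrix proteins that end in a fibulin module. Of the 4, 3 passed an unadjusted p of 0.05 and none the adjusted threshold in the authors' deposited table. Over all genes 3.31% and 0.104% were lower at these thresholds. Efemp1 had means of 1.86 after partial discectomy and 4.04 in sham (ratio 0.460, 0.315 to 0.671, with adjusted p = 0.0541) in the authors' deposited table. Readjusted over the 15911 genes that exceeded the floor by 1 or more on average, or over protein-coding genes, Efemp1 was called lower. With the blood cell lists left out of the adjustment it was not called, and the adjustment over genes exceeding the floor by 5 or more did not cover it. Efemp1 and Hmcn2 were close to the floor after partial discectomy, with means of 0.858 and 0.958 above it. Hmcn1 had means of 144 and 342 (ratio 0.421, 0.245 to 0.725, with adjusted p = 0.164) and Hmcn2 of 1.96 and 10.4 (ratio 0.188, 0.0869 to 0.406, with adjusted p = 0.0659) in the authors' deposited table. Over all 8 fibulin family genes 6 ratios were below and 2 above equal means, those above being Fbln5 and Efemp2.

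Microfibril-associated genes other than the members split 7 to 9 around equal means, with none called of 16. Ltbp4, a latent TGF-beta binding protein that works with fibulin-5 in elastic fibre assembly, had means of 30.2 and 76.2 and a ratio of 0.396 (0.237 to 0.663, with adjusted p = 0.103) in the authors' deposited table. Mmrn1, multimerin-1 of platelets and endothelium, had 6.63 and 2.76 and a ratio of 2.41 (1.35 to 4.28, with adjusted p = 0.0919) in the authors' deposited table. For Emilin3, an EMILIN protein of the matrix, the authors' deposited table gave 0.692 (0.479 to 1.00). Megakaryocyte genes, among which Mmrn1 is known, had 5 of 7 called higher, with a summed level above the floor of 39.0 after partial discectomy and 3.75 in sham by the authors' deposited table. Their part in the ratio of Mmrn1 was not tested.

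Crosslinking genes beside Lox showed no call among 8, with 4 ratios on each side. Loxl1, the lysyl oxidase relative most tied to elastin, had a ratio of 0.670 (0.420 to 1.07, with adjusted p = 0.415) in the authors' deposited table. Loxl3 had 1.24, and Tll1, a protease of the kind that activates lysyl oxidase, 0.617 (0.390 to 0.976, with adjusted p = 0.333), in the authors' deposited table. Of 6 proteins that bind elastic fibres none was called. Tnxb, tenascin-X, had means of 27.0 and 98.7 and a ratio of 0.274 (0.110 to 0.684, with adjusted p = 0.328), against 0.830 for Vcan and 0.944 for Dcn, in the authors' deposited table. None of 9 receptor genes was called. The integrin chain Itgb3, which is also made by osteoclasts and platelets, had a ratio of 1.77 (0.996 to 3.13) and Neu1, the sialidase of the elastin receptor complex, 1.77 (1.18 to 2.65, with adjusted p = 0.203), with Itga8 at 0.716, in the authors' deposited table.

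Proteases that can cut elastin and their inhibitors held both calls of the wider list. Of 9 such proteases 6 had ratios above 1 and 3 below, and of 7 inhibitors 3 were above and 4 below. Prtn3, proteinase 3 of neutrophil granules, rose 4.09-fold (2.21 to 7.55, with adjusted p = 0.0242), from 2.73 in sham to 11.2, in the authors' deposited table. Serpinb1a, an inhibitor of neutrophil serine proteases, rose 3.81-fold (2.21 to 6.57, with adjusted p = 0.0208), from 3.65 to 13.9, in the authors' deposited table. Elane, neutrophil elastase, had a ratio of 4.21 (1.47 to 12.1, with adjusted p = 0.111) and Slpi, another inhibitor of it, 2.59 (1.54 to 4.35, with adjusted p = 0.0882), in the authors' deposited table. Slpi was close to the floor in sham, with a mean of 1.52. Ctss, cathepsin S of myeloid cells, had 1.39 (1.04 to 1.85, with adjusted p = 0.278), while Timp3, an inhibitor of metalloproteinases bound to matrix, had means of 256 and 579 and a ratio of 0.442 (0.264 to 0.743, with adjusted p = 0.1004), in the table that the authors deposited. The 10 neutrophil markers, all called higher, had a summed level above the floor of 1333 after partial discectomy and 85.5 in sham by the authors' deposited table, and their part in the values of Prtn3, Serpinb1a, Elane and Slpi was not tested.

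**Figure D4:**
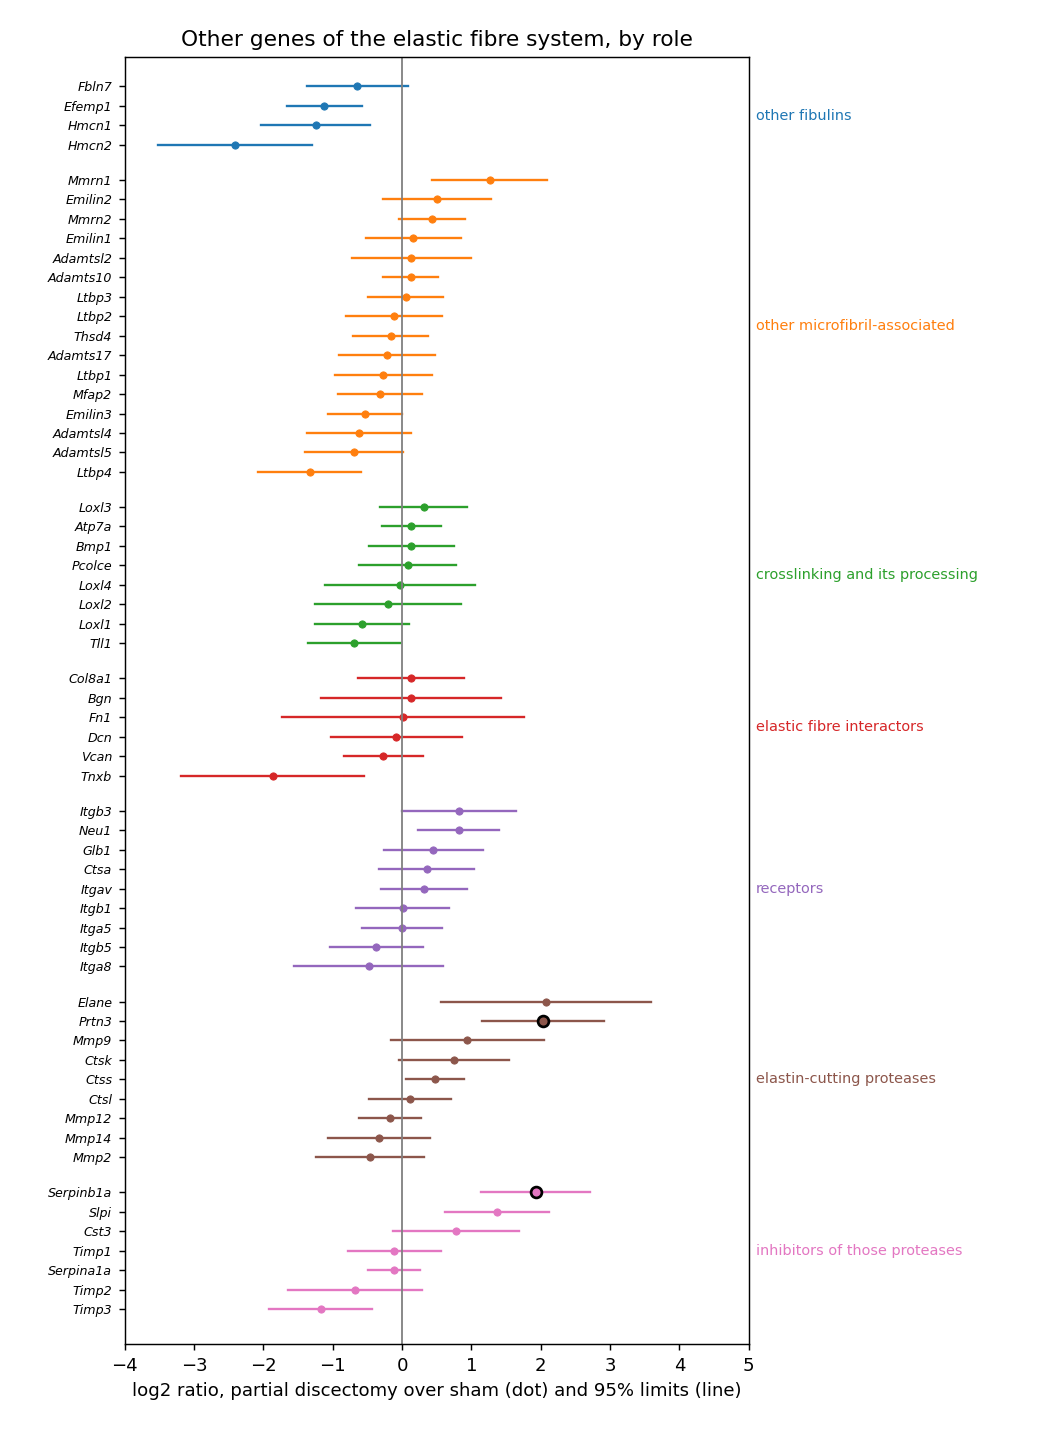
Log2 ratio of partial discectomy over sham (x axis, dots) with deposited 95% limits (lines) for 59 other genes of the elastic fibre system (y axis), grouped by role, with genes at an adjusted p under 0.05 ringed in black. Both ringed genes, Prtn3 and Serpinb1a, lie on the higher side, and the 4 other fibulin family genes all lie on the lower side.

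Lists of fibroblast and muscle markers had no gene called lower. Of 12 fibroblast genes 10 had ratios below 1, beside 37.3% of all genes, with a summed level above the floor of 4933 after partial discectomy and 7979 in sham by the authors' deposited table. Col3a1 had a ratio of 0.629 (0.246 to 1.60), Postn 0.554 (0.249 to 1.23) and Lum 0.723 in the authors' deposited table. Pi16 and Dpp4, markers of a fibroblast progenitor, were the calls of this list, both higher, and the authors' deposited table gave ratios of 3.08 (1.87 to 5.06) and 2.24 (1.52 to 3.30). Of 8 smooth muscle genes 7 had ratios below 1 and none was called, with sums of 95.2 and 137 above the floor by the authors' deposited table. Acta2 had a ratio of 0.538 (0.367 to 0.789), Des 0.467 and Smtn 0.908, and Myh11 was at 5.70 and 10.6, in the authors' deposited table. All 8 skeletal muscle genes had ratios below 1 and none was called, with sums of 164 and 237, and ratios of 0.682 for Acta1, 0.649 for Myh1 and 0.731 for Mb, in the authors' deposited table. Tendon and ligament genes split 3 to 4 with no call among 7, with sums of 2103 and 1753, and the authors' deposited table gave 1.36 for Fmod, 0.368 for Thbs4 and 0.974 for Comp. Most of both sums was Fmod, with means of 1776 and 1310. At an unadjusted p under 0.05 there were 2 of the 7, both lower, where 3.31% of all genes were lower. These were Thbs4 (0.201 to 0.673, with adjusted p = 0.139) and Kera, at 0.345 (0.170 to 0.699, with adjusted p = 0.156), in the authors' deposited table.

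Of 12 osteoblast and osteocyte genes 11 had ratios above 1, beside 62.7% of all genes, and none was called or had an unadjusted p under 0.05, with summed levels of 60971 and 47252 above the floor by the authors' deposited table. Of 8 cartilage genes 3 were above 1 (sums 5837 and 5072) and all 8 endothelial genes were (sums 249 and 177), again with no call, by the authors' deposited table. Col2a1, at 3181 and 2305, was the largest part of the cartilage sums. In the lymphoid list 3 of 9 were called higher, with sums of 120 and 42.6 by the authors' deposited table. The parts of these cell types in the values of the 10 elastic fibre and fibulin genes were not tested.

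**Figure D5:**
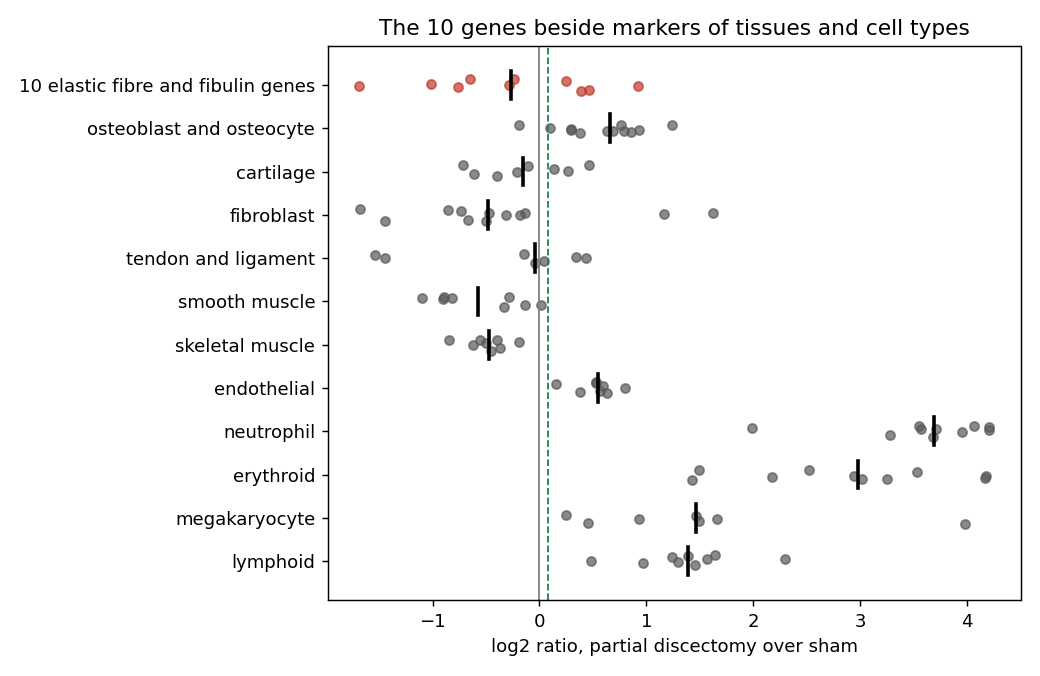
Log2 ratios of partial discectomy over sham (x axis) for the 10 elastic fibre and fibulin genes (red) and for lists of tissue and cell type markers (grey), a dot per gene and a black bar at each list's median. The 10 genes have a median of -0.26, the fibroblast list -0.48, the smooth muscle list -0.58, the osteoblast and osteocyte list 0.66 and the neutrophil list 3.69.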

How the data were processed

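RNA of 6 libraries, 3 sham and 3 partial discectomy, grouped by sample title, was sequenced. The submitters' processing notes name STAR 2.6.1d as a tool and mm10 as the build. For the read counter, normalization, filter and model nothing is given in the sources used here. The authors deposited group means, totals, highest values and geometric means of a normalized expression signal, its ratio and the log2 of that ratio, a signed fold change with 95% limits (entered as a score because it takes negative values, and turned here into ratios), and a p-value with its Benjamini-Hochberg adjustment over 23170 genes, which was recomputed and was equal. The other deposited file held gene positions and no measurement. Depth is unknown, so no interval or detection limit that needs it is given.

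The planned count test could not be run, as the files hold no counts, and a call here is a deposited adjusted p under 0.05. The deposited limits and p-values do not always lead to the same reading. Limits of Itgb3 and Emilin3 hold equal means, while their deposited unadjusted p was 0.0387 and 0.0351. The reverse occurs too, as limits of Col14a1 and Tagln leave out equal means at a deposited unadjusted p of 0.111 and 0.0566. The smallest group mean of 1 was taken as an offset added to each library. Averaging both group means gave the mean over 6 libraries for every gene, so group means are arithmetic means. The limits on single libraries follow from the group sums, the maximum and the product of the 6 values. The spread within groups is estimated as the square root of 3 times the natural log of the geometric mean of both group means over that of the 6 libraries, put on the log2 scale. These steps were tested on simulated data with the floor built in and the same spread setting for every gene. Neither the floor itself nor wider spreads were put to the test. Deposited stops lie 1 base past the GENCODE M21 end for 99.1% of matched symbols, and ends are printed less 1. Named genes are the 10 members, each called gene and up to 3 per role with the smallest p of the wider list, and up to 3 markers per list with the highest mean. Fbln7, Pi16, Dpp4, Clec3b, Col14a1, Ly6a, Cd34, Kera, Tagln, Myh11 and the overlapping neighbours were named after their values were seen. The members and lists were chosen with earlier results of these data known. With 2 group means per gene, no likeness of patterns was sought. In the RefSeq promoter table on GRCm38.p6, 5 of the 10 genes matched by symbol. Python 3.11.15 and pandas 2.3.3 were used.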

Additional observations from a re-analysis of the deposited data

How the results depend on the processing

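Taking off the floor, with or without 0.1 or 10 added, changes the size of a ratio and by construction not its sign. Set against the median of all genes or the summed group means, which shifts every gene alike, the 10 log2 ratios stayed on their side. Without the highest library 7 of the 8 placed genes kept it, and Eln turned from -0.29 to 0.0057. The placement by the geometric mean was chosen after seeing the data, and by group sums alone 3 genes were placed. The count of calls depended on the rule. Among the 10 genes there were 0 calls under every adjustment of p tried, of which the one over genes exceeding the floor by 5 or more left out Mfap5 and so covered 9. There were 4 at an unadjusted p under 0.05, 4 with 95% limits against equal means, and 5 with limits against the median of all genes or the summed group means, Fbln2 being the addition. The other elastic fibre genes had 2 calls, and 16, 14, 15 and 18 under those rules, split 6 higher and 12 lower under the last. The whole table had 552, and 3299, 3398, 3418 and 3811 under those rules, which make no adjustment for the number of genes. It had 243 when adjusted over genes exceeding the floor by 5 or more, where fewer genes were tested. No paired analysis was possible because the table holds no values per library. For the same reason leaving out each replicate in turn and a second count test were not run. The limits of Lox, Mfap4 and Fbn2 are the widest of the 10, and those of Lox and Fbn2 hold equal means.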
